A study of Mus musculus with 4 samples.

Results

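The genes described here were 34 genes of the serum response factor (SRF) and actomyosin system, chosen by name: SRF itself, genes that SRF and its coactivators are known to switch on, and the proteins that build contractile actin filaments. For each gene, the brightest of the probe sets carrying that single gene symbol stood for it. All 34 were on the array, among 22180 genes in all, and all 34 had a mean signal above the level set for dim genes (2.34 log2), so all were among the 12708 genes tested. The values came from skeletal stem cells of mice 4 to 6 weeks old that carried Mmp14 on both alleles (Mmp14+/+, wild type, 2 arrays) or lacked it (Mmp14-/-, knockout, 2 arrays). Mmp14 encodes MT1-MMP, a collagen-cleaving protease held in the cell membrane. Cells of both groups had been kept in 3D collagen gel for 48 h. The labels do not name the surface markers used to isolate the cells, the design of the deletion, or say if the replicates are different animals or cultures. The p-values therefore speak only of the spread among these arrays, and that spread may be technical.

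SRF is a transcription factor that binds a short DNA element called the CArG box. Its coactivators of the myocardin family, MRTF-A and MRTF-B, are held back by binding monomeric actin. When actin monomers assemble into filaments, the MRTFs enter the nucleus and SRF target genes are transcribed, among them many genes of actin, myosin and focal adhesions. In skeletal stem and stromal cells this system is known to respond to cell shape and to the stiffness of the matrix.

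Mmp14 itself read 8.77 and 8.83 log2 for wild type against 5.77 and 5.84 for knockout, in the direction of the labels. The stromal markers Prrx1 (10.1 to 10.2 log2 over the 4 arrays) and Col1a1 (11.4 to 11.6) were present in both groups, and all 14 stem and stromal markers on the array were above the level for dim genes. Of these, 4 were called higher and 1 lower in knockout, while 6.20% and 5.12% of all tested genes were. Cxcl12 (1.81 log2), Pdgfra (1.77), Cd200 (1.46) and Nt5e (1.095) were the higher ones, and Lepr was lower (−2.26). The median size of a difference, without its sign, was 0.54 log2 over the 14 markers, against 0.175 over all tested genes. The levels of Prrx1 and Col1a1, which were not called, thus do not show that the groups were matched in these markers. All 8 endothelial markers were below the level for dim genes, as were 4 of 9 macrophage and leukocyte markers, including Ptprc. The sex-linked gene Xist was higher in knockout by 0.73 log2 (limma adjusted p = 0.0155) and the Y-linked Eif2s3y lower by 0.69 (0.0474). The Y-linked Kdm5d (−0.42, limma adjusted p = 0.104) and Uty (−0.25, 0.52) were not called. Xist was at 8.45 and 8.48 log2 in wild type against 9.30 and 9.09 in knockout. Eif2s3y was at 6.18 and 5.79 against 5.19 and 5.40, so both genes gave signal in all 4 arrays. The part of these genes in the results was not tested.

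Promoter sequences were matched by symbol to RefSeq windows of GRCm38.p6, each running from 250 bases before to 50 bases after a start site. The CArG box was searched by its name's consensus, which reads the same on either strand, so 1 search covers both. Of the 34 genes, 30 had 1 or more windows (36 windows in all), and 9 of the 30 (30.0%) held at least 1 CArG box, against 488 of 27025 genes (1.81%) and 1.63% of windows in the whole table. Several of these genes were listed because they are known SRF targets, so this share is a property of the choice. A match is a description of the letters and not a binding site. The upstream 250 bases are shown first for the genes on which the results turn: both Fhl2 windows, the Fhl1 window with a match, Cnn1 and Srf, with the CArG box in capitals.
Fhl2 window 1, chr1:43163962-43164211, minus strand: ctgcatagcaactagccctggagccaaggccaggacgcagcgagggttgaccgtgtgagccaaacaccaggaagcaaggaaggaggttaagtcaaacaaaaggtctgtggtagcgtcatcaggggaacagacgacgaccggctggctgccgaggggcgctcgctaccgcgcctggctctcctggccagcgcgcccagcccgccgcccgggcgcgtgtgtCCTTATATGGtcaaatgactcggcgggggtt
Fhl2 window 2, chr1:43196762-43197011, minus strand: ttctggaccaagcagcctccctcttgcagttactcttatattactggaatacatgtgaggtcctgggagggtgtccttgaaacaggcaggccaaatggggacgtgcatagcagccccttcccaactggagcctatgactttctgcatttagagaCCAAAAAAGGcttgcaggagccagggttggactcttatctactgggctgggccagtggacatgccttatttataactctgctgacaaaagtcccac
Fhl1, chrX:56779433-56779682, plus strand: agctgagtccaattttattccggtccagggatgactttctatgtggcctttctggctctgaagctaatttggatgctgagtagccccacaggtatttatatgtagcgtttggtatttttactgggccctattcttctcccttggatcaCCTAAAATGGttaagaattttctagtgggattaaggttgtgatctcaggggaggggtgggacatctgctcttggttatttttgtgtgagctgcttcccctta
Cnn1, chr9:22099003-22099252, plus strand: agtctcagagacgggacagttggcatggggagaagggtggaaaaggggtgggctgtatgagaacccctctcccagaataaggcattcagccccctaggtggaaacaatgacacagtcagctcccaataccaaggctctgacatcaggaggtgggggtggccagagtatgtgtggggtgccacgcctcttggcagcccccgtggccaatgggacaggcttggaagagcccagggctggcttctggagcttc
Srf, chr17:46556163-46556412, minus strand: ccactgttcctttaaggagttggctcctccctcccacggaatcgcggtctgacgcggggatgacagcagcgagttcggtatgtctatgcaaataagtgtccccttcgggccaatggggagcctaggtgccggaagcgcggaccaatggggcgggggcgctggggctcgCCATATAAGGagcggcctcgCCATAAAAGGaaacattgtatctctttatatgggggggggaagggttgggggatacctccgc

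Fhl2 held 1 CArG box in each of its 2 windows, with the first base 31 and 96 bases before the start site. Fhl1 held 1, with the first base 102 bases before it, and its other window held no match. Srf held 2, at 82 and 62 bases before its own start site. The window of Cnn1 held no CArG box, nor a match with 1 mismatch. The other 6 genes with a match are shown with 10 bases on each side, to let the elements be compared.
Acta1, chr8:123894829-123894858, minus strand: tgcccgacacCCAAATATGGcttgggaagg
Actg1, chr11:120348566-120348595, minus strand: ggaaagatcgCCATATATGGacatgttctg
Cnn2, chr10:79988534-79988563, plus strand: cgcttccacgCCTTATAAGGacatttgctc
Filip1l, chr16:57549170-57549199, plus strand: atgccgcgcgCCTTATAAGGctgagcggtg
Myl9, chr2:156775293-156775322, plus strand: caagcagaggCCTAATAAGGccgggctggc
Vcl, chr14:20929161-20929190, plus strand: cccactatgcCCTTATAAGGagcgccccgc

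Cnn2, Filip1l and Vcl shared the same 10 letters in capitals. With 1 mismatch allowed, 15 of the 30 genes held a match, against 23.8% of all genes in the table, and the 6 that this added were Acta2, Cald1, Flna, Lmod1, Tpm1 and Tpm3. The expression values did not line up with the matches in 1 direction: of the 9 genes with a CArG box, Fhl2 was called higher in knockout, Fhl1 was called lower and 7 were not called. Over all 162 tested genes with a CArG box in a window, 10 were called higher and 10 lower (12.3%), against 10.9% called among tested genes whose windows held none, and their median difference was −0.03 log2.

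**Figure D1:**
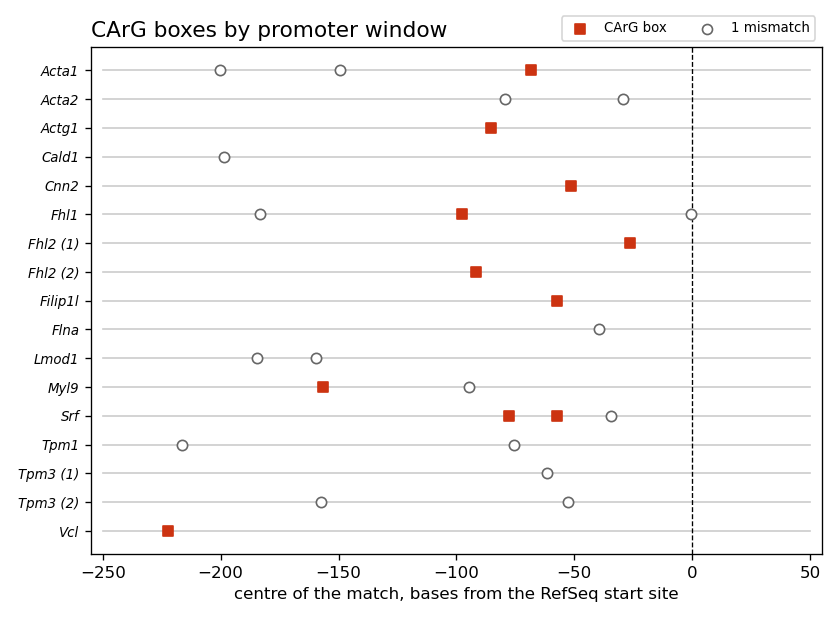
Positions of CArG boxes (filled squares) and of matches with 1 mismatch (open circles) in the promoter windows that held either, drawn at the centre of each match as bases from the RefSeq start site (dashed line), with genes of several matched windows numbered by coordinate. All CArG boxes lay upstream of the start site, with first bases from 227 bases before it in Vcl to 31 in Fhl2.

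The submitters compared the genotypes to screen for changes in transcription. Among the 34 genes, Fhl2 rose 2.19-fold in knockout, while Cnn1, a calponin of smooth muscle, fell 1.66-fold and Fhl1 fell 1.48-fold. The other 31 genes, among them all actins, tropomyosins and myosins of the list, did not pass the test. In limma's fit over 12708 genes with Benjamini-Hochberg adjustment, 1 of 34 genes was called higher (2.94%) and 2 lower (5.88%) at an adjusted p below 0.05, against 6.20% and 5.12% of all tested genes. The share called in either direction was 8.82%, against 11.3%. A lower signal in such bulk arrays cannot tell fewer expressing cells from less RNA per cell.

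The median difference of the 34 genes was 0.05 log2, against −0.0041 over all tested genes, and differences ran from −0.73 to 1.13. The median size of a difference, without its sign, was 0.203 log2 for the 34 genes and 0.175 for all tested genes. The 34 genes were much brighter, with a median level of 9.13 log2 against 5.35 for all tested genes. The comparison was not matched for brightness. Within 0.5 log2 of no change lay 29 of the 34 (85.3%), against 86.7% of all. The mean log2 intensity over the 34 genes was 8.34 and 8.28 in the wild-type arrays and 8.34 and 8.35 in the knockout arrays, so the groups differed by no more than the wild-type arrays did. At an unadjusted p below 0.05, 5 were higher and 5 lower (29.4%), against 14.1% higher and 13.5% lower, or 27.5% in all, of all tested genes. The 95% interval of a difference reached a median of 0.27 log2 to either side, and for 30 of the 34 it stayed within 1 log2 of 0.

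**Figure D2:**
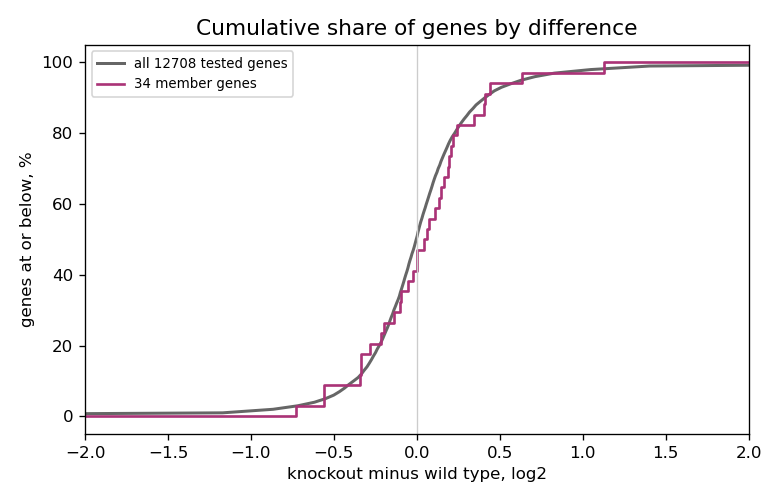
Cumulative share of genes (vertical axis, %) by knockout minus wild type difference (horizontal axis, log2, shown from −2 to 2) for the 34 genes and for all 12708 tested genes. The curves nearly overlie, with medians of 0.05 and −0.0041.

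**Figure D3:**
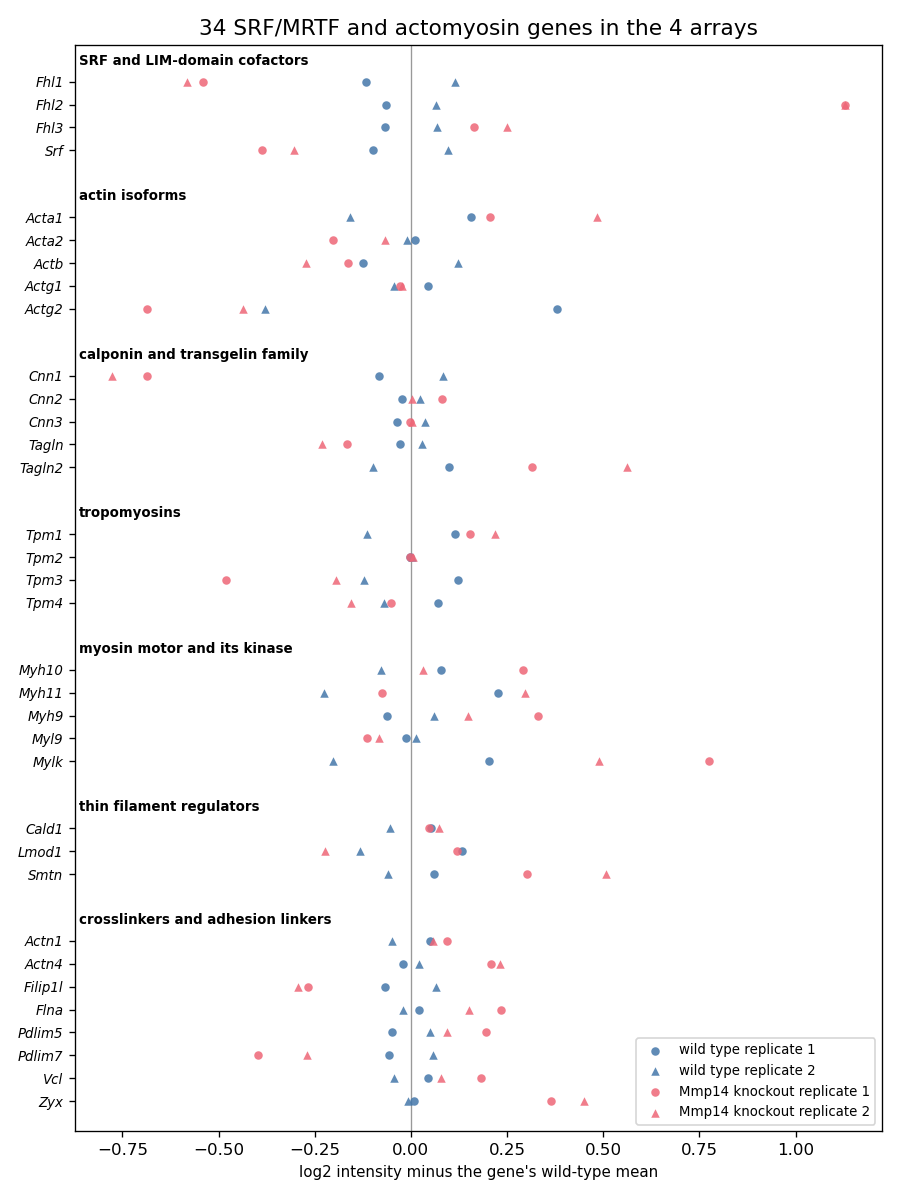
Each array's log2 intensity minus the wild-type mean of the gene, for the 34 genes in groups by role (blue, wild type; red, knockout; circles, replicate 1; triangles, replicate 2). Fhl2 stands 1.13 log2 to the right in both knockout arrays, and Cnn1 and Fhl1 stand to the left.

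Of 4 tested genes of SRF and its LIM-domain partners, 1 was called higher and 1 lower, against 6.20% and 5.12% of all tested genes. So few genes cannot set this group apart. FHL proteins consist of LIM zinc-finger domains and act as adaptors between the cytoskeleton and transcription factors. FHL2 is known both as a product of SRF activity and as a protein that binds SRF. Fhl2 was at 6.84 and 6.97 log2 in wild type against 8.03 and 8.03 in knockout. The knockout arrays lay above both wild-type arrays, which differed from each other far less. The difference was 1.13 log2 (SE 0.106, 95% interval 0.87 to 1.39, limma adjusted p = 0.00283, n = 2 per group). Fhl2 was called under every alternative fit run, with adjusted p from 7.04e-05 to 0.0478.

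Fhl1, the X-linked relative best known from muscle, was at 5.23 and 5.46 log2 in wild type against 4.80 and 4.76 in knockout. Both knockout arrays were below both wild-type arrays, and the difference was −0.56 (SE 0.12, limma adjusted p = 0.0374, n = 2 per group). The call was lost on leaving out wild type replicate 2 (adjusted p = 0.105), knockout replicate 1 (0.127) or knockout replicate 2 (0.131). It was also lost with the replicate block (0.0669), without a filter on dim genes (0.0574) and in a single fit of all probe sets (0.197). Over 411 tested X-linked genes the median difference was 0.01 log2, and 28 were called higher and 21 lower, against 759 and 627 of 12211 autosomal genes. Fhl3, the third relative, was at 6.91 and 7.05 in wild type against 7.14 and 7.23 in knockout (0.21, adjusted p = 0.286 in limma). The 3 FHL genes thus gave 1 rise, 1 fall and 1 value that did not pass.

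Srf itself was at 8.002 and 8.20 log2 in wild type against 7.71 and 7.80 in knockout. The knockout arrays were lower in both cases, and the difference of −0.34 (SE 0.117, 95% interval −0.63 to −0.06) did not pass the test (limma adjusted p = 0.12). Srf was called lower with a trended and robust variance prior.

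**Figure D4:**
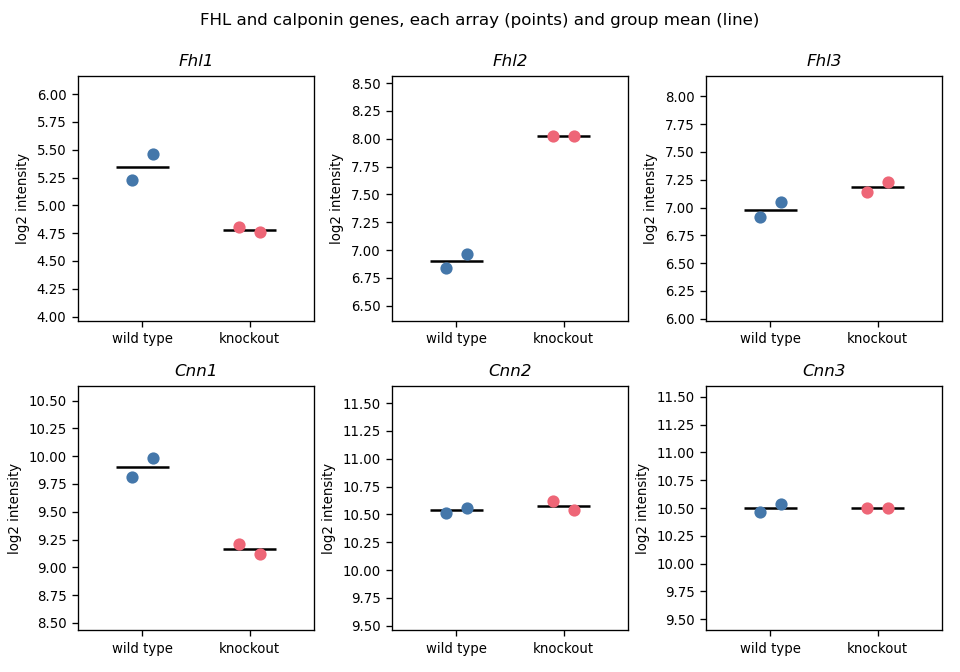
Log2 intensity of the FHL and calponin genes in each array (points, 2 per group) with group means (lines); every panel spans 2.2 log2. Fhl2 is higher and Fhl1 and Cnn1 lower in knockout, while Cnn2 and Cnn3 were not called.

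The calponin and transgelin family binds along actin filaments and stabilises them. Cnn1, the calponin of contractile smooth muscle, was at 9.82 and 9.98 log2 in wild type against 9.21 and 9.12 in knockout. Both knockout arrays were below both wild-type arrays, with a difference of −0.73 (SE 0.113, 95% interval −1.01 to −0.45, limma adjusted p = 0.0137, n = 2 per group). The call was lost without Mmp14 knockout replicate 2 (adjusted p = 0.0579) and in a single fit of all probe sets (0.11). The more widely expressed calponins were not called. Cnn2 was at 10.51 and 10.56 in wild type against 10.62 and 10.54 in knockout. Cnn3 was at 10.46 and 10.54 in wild type and 10.50 in both knockout arrays. Their 95% intervals were −0.21 to 0.29 for Cnn2 and −0.25 to 0.25 for Cnn3. The interval of Cnn1 did not overlap either, but the difference between the genes was not tested.

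Transgelin (Tagln, SM22-alpha), a standard reporter of SRF activity in smooth muscle and myofibroblasts, was at 9.56 and 9.61 log2 in wild type against 9.42 and 9.35 in knockout. The groups did not overlap, yet the difference was small (−0.20, 95% interval −0.45 to 0.05, limma adjusted p = 0.275). Its relative Tagln2 was at 7.31 and 7.12 in wild type against 7.53 and 7.78 in knockout, a difference of 0.44 that missed the threshold (limma adjusted p = 0.0962). Its second, dimmer probe set gave 0.38, with overlapping groups. Tagln and Tagln2 thus had values on opposite sides of 0, and neither was called.

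None of the 5 actin isoforms was called by limma, against 11.3% of all tested genes. At an unadjusted p below 0.05, 0 of 5 passed, against 27.5% of all tested genes. So few genes cannot set the actins apart from the other tested genes. Acta2, the smooth muscle actin used as the marker of myofibroblasts, was at 11.57 and 11.55 log2 in wild type against 11.36 and 11.50 in knockout. The knockout arrays lay slightly lower, by 0.14 (95% interval −0.40 to 0.13, limma adjusted p = 0.47). Actb, which encodes the beta actin of all cells, was at 8.30 and 8.54 in wild type against 8.26 and 8.15 in knockout (−0.22). Actg1, the other cytoplasmic actin, was at 10.11 and 10.02 against 10.04 in both knockout arrays (−0.03). Both cytoplasmic actins are often used as loading controls.

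Actg2, the gamma actin of visceral smooth muscle, was the least certain of the actins. It was at 6.39 and 5.63 log2 in wild type against 5.32 and 5.57 in knockout. The wild-type arrays differed by 0.761 log2, the widest gap between wild-type replicates among the 34 genes, and the knockout mean was lower by 0.56 (95% interval −1.18 to 0.06, limma adjusted p = 0.217). Without wild type replicate 2 it was called (−0.94, adjusted p = 0.0317). A fit that leaves out an array has 1 array in that group and 1 residual degree of freedom, and assumes that the lone array varies like the other group. Acta1, the skeletal muscle actin, was at 5.81 and 5.50 in wild type against 5.86 and 6.14 in knockout (0.34, limma adjusted p = 0.221). Actin coding sequences are close to one another, and Actg1 had 6 probe sets carrying its symbol alone, whose differences ran from −0.44 to 0.28, so how far these probe sets tell the isoforms apart is uncertain.

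Tropomyosins lie along actin filaments and set which myosins and other proteins can bind. Of the 4 tropomyosin genes, 0 were called by limma and 0 had an unadjusted p below 0.05. These shares were 11.3% and 27.5% over all tested genes, so 4 genes cannot be set apart by such counts. Tpm1 was at 9.70 and 9.48 log2 in wild type against 9.75 and 9.81 in knockout (0.19, limma adjusted p = 0.377). Tpm2 hardly varied, with all 4 arrays between 8.78 and 8.79. Tpm3 was at 7.76 and 7.51 in wild type against 7.15 and 7.44 in knockout (−0.34, limma adjusted p = 0.205). Its second, much dimmer probe set (mean 2.92 log2) gave −0.22, with overlapping groups. Tpm4 was at 10.48 and 10.34 in wild type against 10.35 and 10.25 in knockout (−0.10), with overlapping groups. A second probe set of Tpm4 gave 7.21 and 7.25 against 6.67 and 6.77, a difference of −0.51 without overlap, so the 2 probe sets of this gene disagree in size.

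The motor of stress fibres is myosin II, built from heavy chains and light chains and switched on when myosin light chain kinase phosphorylates the light chain. Myh9, the main non-muscle heavy chain gene, was at 10.15 and 10.27 log2 in wild type against 10.54 and 10.36 in knockout (0.24, limma adjusted p = 0.255). Myh10, which encodes the second non-muscle heavy chain, was at 7.37 and 7.22 against 7.59 and 7.33 (0.16), with overlapping groups. Myh11, the heavy chain of smooth muscle, was at 4.31 and 3.86 against 4.01 and 4.39 (0.11). Only the Myh9 arrays separated by group, and none of the 3 was called.

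Myl9, the regulatory light chain gene and an established SRF target, was at 10.15 and 10.18 log2 in wild type against 10.05 and 10.09 in knockout (−0.10, 95% interval −0.34 to 0.15). Mylk, the kinase gene, was at 3.99 and 3.59 in wild type against 4.56 and 4.28 in knockout. Its knockout arrays were both higher, and after Fhl2 and Cnn1 it had the largest difference of the 34 in either direction (0.63, SE 0.174, limma adjusted p = 0.0728). Mylk was called without wild type replicate 1 (0.83, adjusted p = 0.0437), with the replicate block (0.0393) and with a trended and robust variance prior (0.0497).

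Among the regulators of thin filaments, Smtn, which encodes the actin-binding smoothelin, was at 8.48 and 8.36 log2 in wild type against 8.72 and 8.93 in knockout (0.40, limma adjusted p = 0.0889). The groups did not overlap. A second, much dimmer probe set of Smtn (mean 2.68 log2) gave 0.07, with overlapping groups. Cald1, the gene of caldesmon, was at 9.56 and 9.46 against 9.56 and 9.58 (0.06). Lmod1, which encodes the filament nucleator leiomodin of smooth muscle, was at 6.29 and 6.02 against 6.28 and 5.93 (−0.05). Neither of these separated by group.

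The 8 crosslinkers and linkers to focal adhesions did not overlap between groups for any gene: 6 were above wild type in both knockout arrays and 2 were below, while groups did not overlap in 57.8% of all tested genes (28.0% above and 29.8% below). None was called by limma, against 11.3% of all tested genes. At an unadjusted p below 0.05, 1 was higher and 2 lower, against 14.1% and 13.5% of all tested genes. Zyx, which encodes zyxin, a mechanosensitive protein of adhesions and stress fibres, came closest. It was at 9.75 and 9.73 log2 in wild type against 10.10 and 10.19 in knockout (0.41, SE 0.102, limma adjusted p = 0.0572). Zyx was called after quantile normalization (0.45, adjusted p = 0.0423).

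Actn4 and Actn1 encode the alpha-actinins, which bundle actin filaments. Actn4 was at 9.88 and 9.93 log2 in wild type against 10.11 and 10.14 in knockout (0.22), and Actn1 at 10.39 and 10.30 against 10.44 and 10.40 (0.08). Flna, the X-linked gene of the crosslinker filamin A, was at 9.85 and 9.81 against 10.06 and 9.98 (0.19). Each of these was above wild type in both knockout arrays by an amount that did not pass the test (limma adjusted p = 0.222, 0.694 and 0.29).

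Vcl, the gene of vinculin, which ties talin to actin, was at 10.16 and 10.07 log2 in wild type against 10.30 and 10.20 in knockout (0.13). Pdlim5 and Pdlim7 encode PDZ-LIM adaptors of the actin cytoskeleton. Pdlim5 was at 9.39 and 9.49 against 9.64 and 9.53 (0.14), while Pdlim7 was at 7.58 and 7.70 against 7.24 and 7.37 (−0.33, limma adjusted p = 0.115). Filip1l was at 2.68 and 2.81 against 2.48 and 2.45 (−0.28, adjusted p = 0.156 in limma), close to the 2.34 log2 set for dim genes. Pdlim7 and Filip1l were the 2 of this group that lay below wild type.

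**Figure D5:**
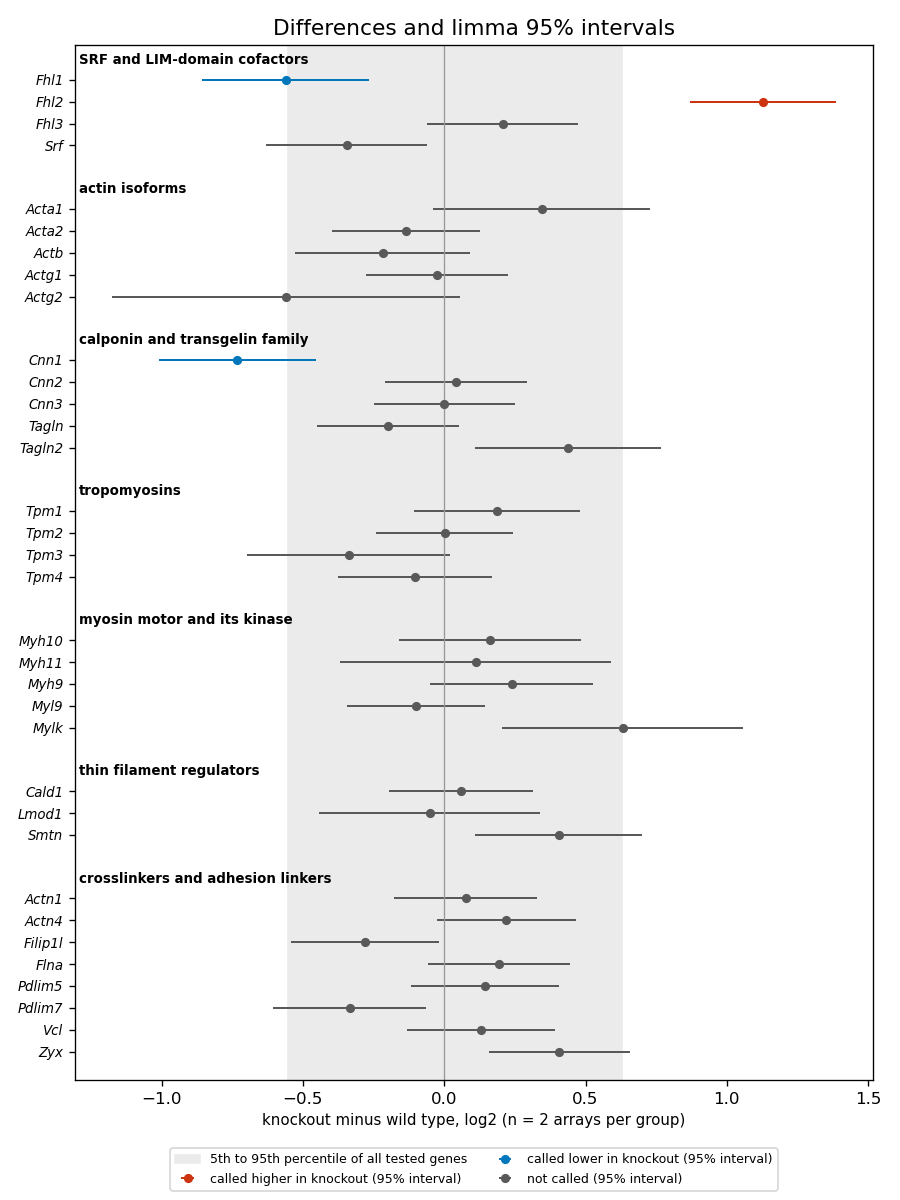
Knockout minus wild type difference (log2, horizontal axis) with limma's 95% interval for each of the 34 genes in groups by role, beside the 5th to 95th percentile of all tested genes (grey, −0.55 to 0.63). Fhl2 (1.13) lies to the right of the grey band, and Cnn1 (−0.73) and Fhl1 (−0.56) lie just beyond its left edge, as does Actg2 (−0.56). Mylk (0.63) lies at the right edge, and neither it nor Actg2 was called.

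The threshold of the call fell between Fhl1 (adjusted p = 0.0374) and Zyx (0.0572), followed by Mylk, Smtn and Tagln2, all limma values. With a trended and robust variance prior, 6 of the 34 were called higher (Actn4, Fhl2, Mylk, Smtn, Tagln2 and Zyx, 17.6%). The 4 called lower were Cnn1, Fhl1, Pdlim7 and Srf (11.8%), against 8.44% higher and 8.08% lower of all tested genes. In either direction this was 29.4% of the 34, against 16.5% of all tested genes. With a stricter filter on dim genes, 4 of 31 were called higher and 3 lower (12.9% and 9.68%), against 10.7% and 11.0% of all tested genes. In either direction this was 22.6% of the 31, against 21.7% of all. With the replicate number as a block, Fhl2 and Mylk were called higher and Cnn1 lower (5.88% and 2.94%), against 4.77% and 3.55% of all genes. In either direction this was 8.82% of the 34, against 8.32% of all. In a single fit of all probe sets, Fhl2 alone was called, against 0.312% of probe sets called higher and 0.215% lower (0.527% in all). The number of calls thus moved by over 1.5 times with the fit. On leaving out 1 array, 30 to 34 of the 34 differences kept their sign.

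The rest of the pathway was described from lists chosen by function, with earlier results of these data known. The shares called in these lists are therefore descriptions and not tests. Of 133 tested genes of these lists that are not among the 34, 16 were called higher and 12 lower (12.0% and 9.02%, against 6.20% and 5.12% of all tested genes), with a median difference of 0.02 log2. Of the 28 calls, 13 held on leaving out each array in turn. In a single fit of all probe sets, the adjusted p of the 28 ran from 0.052 to 0.222.

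Of 7 tested cofactors of SRF, 1 was called higher and 0 lower by limma, against 6.20% and 5.12% of all tested genes. At an unadjusted p below 0.05, 1 was higher and 1 lower, against 14.1% and 13.5% of all tested genes. Scai, known as a suppressor that binds MRTF-A, was at 6.65 and 6.62 log2 in wild type against 7.25 and 7.03 in knockout (0.50, limma adjusted p = 0.0471), a call lost on leaving out any 1 array (0.0693 to 0.242). Mrtfa was at 7.78 and 7.94 against 7.55 and 7.46 (−0.36, limma adjusted p = 0.102), and Mrtfb at 7.23 and 7.29 against 7.48 and 7.40 (0.18). The 2 coactivator genes thus had values on opposite sides of 0, and neither passed. The ternary complex factor gene Elk3 had a difference of 0.03.

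Of 20 tested kinases and phosphatases, 1 rose and 3 fell, against 6.20% and 5.12% of all tested genes. Cdc42bpa, which encodes the myosin-activating kinase MRCK-alpha, was at 9.43 and 9.14 log2 in wild type against 8.39 and 8.27 in knockout (−0.96, limma adjusted p = 0.0103), and kept its call on leaving out each array. Limk2, whose product inactivates cofilin, fell by 0.94 on the log2 scale and Cit, a kinase of cytokinesis, fell by 0.78. Prkg1, the cGMP-dependent kinase that relaxes smooth muscle, rose (0.78). Limk2 lost its call with wild type replicate 1 (0.07), wild type replicate 2 (0.111) or knockout replicate 1 (0.0768) left out. Cit lost it without knockout replicate 1 (0.084) or 2 (0.0515), and Prkg1 without knockout replicate 1 (0.0687).

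Of 27 tested genes of actin monomer binding, assembly and turnover, 1 rose and 3 fell (3.7% and 11.1%, against 6.20% and 5.12% of all tested genes), and the list's median was −0.15. The formin genes Fmnl2 and Diaph3 fell: Fmnl2 was at 7.42 and 7.15 log2 in wild type against 6.23 and 6.08 in knockout (−1.13, limma adjusted p = 0.00586), and Diaph3 had a difference of −0.86 (0.0259). Cap2, which recycles actin monomers, fell (−0.85, 0.00616), and the capping protein gene Tmod2 rose (0.63, 0.0227). Cap2 was at 3.52 and 3.60 log2 in wild type against 2.71 and 2.72 in knockout, close to the 2.34 log2 set for dim genes. Tmod2 was also dim, at 3.48 and 3.45 against 4.19 and 4.00. Diaph3 lost its call with wild type replicate 1 (0.0563) or knockout replicate 2 (0.079) left out. Tmod2 lost it with either wild-type array left out (0.0588 and 0.0721) and without knockout replicate 1 (0.125). Of 9 tested further myosin genes, Myl6b rose (0.95, 0.0274) and Myl6 fell (−0.90, 0.0231), both essential light chain genes. Each was 11.1% of that list, against 6.20% higher and 5.12% lower of all tested genes. Myl6b was at 3.11 and 3.15 log2 in wild type against 3.81 and 4.35 in knockout. Leaving out wild type replicate 2 ended both calls (0.0797 for Myl6b and 0.0747 for Myl6), as did leaving out knockout replicate 2 (0.0506 and 0.067). Leaving out wild type replicate 1 ended that of Myl6b (0.0786). Myl6 was also not called with the replicate block (0.0528). The unconventional myosin genes Myo10 (−0.19) and Myo1e (0.44, limma adjusted p = 0.0579) were not called.

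Of 30 tested further genes of stress fibres and focal adhesions, 5 rose and 2 fell (16.7% and 6.67%, against 6.20% and 5.12% of all tested genes). Synpo, which encodes the actin-bundling synaptopodin, was at 5.23 and 5.16 log2 in wild type against 6.21 and 6.22 in knockout (1.03, limma adjusted p = 0.0033). Tns3, a tensin gene, rose by 1.02. The PDZ-LIM genes parted: Pdlim2 was at 7.85 and 7.86 against 8.75 and 8.63 (0.84, limma adjusted p = 0.00738), and Pdlim4 at 5.67 and 5.74 against 4.11 and 4.44 (−1.43, 0.00317). These 4 kept their calls on leaving out each array. The other 3 calls did not: Tns1 (0.76) lost its call on leaving out either of 2 arrays (0.0519 and 0.079), and Actn3 (0.44) and Palld (−0.53) lost theirs on leaving out any 1 array and with the replicate block (0.0819 and 0.0568).

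Of 19 tested further reported SRF targets, 5 rose and 1 fell (26.3% and 5.26%, against 6.20% and 5.12% of all tested genes). This list too was chosen with earlier results known, so its share is not a test of SRF activity. The genes that rose were Egr3 (1.38), Egr2 (1.31), Egr1 (0.87), Fos (0.83) and Nr4a1 (0.78), immediate-early genes that SRF is known to drive together with ternary complex factors, at limma adjusted p from 0.00412 to 0.00912. Egr1, for example, was at 6.29 and 6.42 log2 in wild type against 7.21 and 7.24 in knockout. Ccn2, a matricellular gene shared with YAP, fell by 0.64 (limma adjusted p = 0.0155), and lost its call with averaged probe sets (0.0621) and when wild type replicate 2 (0.0525) or either knockout array was left out (0.0568 and 0.0764). Other immediate-early genes of the list were not called: Fosb had a difference of −0.06, Junb of −0.02, Ier2 of 0.35 (limma adjusted p = 0.161) and Dusp1 of −0.42 (0.0519). The immediate-early genes of this list thus did not move as 1 group.

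Several of the 34 genes are also markers of smooth muscle. Of 16 smooth muscle and pericyte markers, which include Actg2, Lmod1 and Myh11, 4 were below the level for dim genes (Kcnj8, Abcc9, Higd1b and Casq2). Of the 12 tested, 2 were called higher (Sncg and Mcam) and 2 lower (Rgs5 and Hspb6), against 6.20% and 5.12% of all tested genes. The summed linear intensity of the 16 markers was 781 to 897 in wild type and 811 to 919 in knockout. Npnt, the brightest of them, weighs most in this sum. It was at 8.61 and 8.28 log2 in wild type against 8.59 and 8.27 in knockout. The smooth muscle sum therefore does not show that the list was level. Myocd, the smooth muscle coactivator of SRF, was at 2.09 and 2.62 log2 in wild type against 2.79 and 2.61 in knockout. Of 19 skeletal muscle markers, 14 were below that level, among them Myod1 and Myog, and Pax7 rose (1.31, limma adjusted p = 0.00221). The summed linear intensity of the 19 markers was 92.0 to 97.4 in wild type and 110.04 to 111.7 in knockout. That sum includes Pax7, which was at 3.17 and 3.12 log2 in wild type against 4.55 and 4.36 in knockout. Pax7 was the only called gene of the 5 tested, against 11.3% of all tested genes. The sum therefore does not show a rise across the list, and its part in the values of Acta1 was not tested.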

How the data were processed

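Gene expression was measured on Affymetrix arrays of 4 samples. Per the labels' protocols, cDNA was amplified from 10 ng of RNA, and 3.75 µg of it received a biotin label. The values deposited by the authors are log2 intensities of 41345 probe sets. Limma and oligo are named in the submitters' processing notes, without roles, and the normalization is not given in the sources used here. Precision is limited by having 4 arrays.

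Of the probe sets, 23521 carried exactly 1 symbol, 1814 several and 16010 none listed. A gene was tested where its mean reached the median of all probe sets (2.34 log2), in R 4.3.3 with limma 3.58.1 (lmFit, eBayes, two-sided, 2 residual degrees of freedom, no block), and p-values were adjusted over 12708 genes by Benjamini and Hochberg, with calls below 0.05. Differences are knockout minus wild type. The 34 genes, the lists and the design were chosen with earlier results of these data known. All 34 genes are given, and from each other list called genes first, by size, then the brightest, at most 4 a list. The genes of 1 list are not reported here by name, though they count in the total over the lists. Beyond that rule, Actn3, Ccn2, Dusp1, Fosb, Ier2, Junb, Nr4a1, Palld and Tns1, all members of those lists, were chosen for naming after their values were seen. The called stem and stromal markers were also named after their values were seen. Same-numbered arrays deviated with a correlation of −0.04, so the numbers were not taken as pairs. The fit was tested on simulated data. Protein sequences were not used here.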

Additional observations from a re-analysis of the deposited data

How the results depend on the processing

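Alternatives changed 1 choice at a time. Fhl2 was called higher under each of them. Genes called over the whole table numbered 1439, and 687 to 1131 on leaving out 1 array each, 218 with every probe set in 1 fit, 2365 at an adjusted p below 0.1 and 459 below 0.01. Of the 34 genes, 1 was called higher and 2 lower. These were 4 higher with the stricter filter, 2 with the replicate block, 2 after quantile normalization, 6 with trended and robust eBayes, 5 at an adjusted p below 0.1, and 1 to 2 on leaving out 1 array each. Called lower were 1 without a filter, 1 with the replicate block, 4 with trended and robust eBayes, 0 with every probe set in 1 limma fit (4 at an unadjusted p below 0.05), 0 at an adjusted p below 0.01 (5 at an unadjusted p below 0.05), and 0 to 2 on leaving out 1 array each. The 0 arose without Mmp14 knockout replicate 2 (4 at an unadjusted p below 0.05). The counts over all tested genes moved with the fit as well. In the main fit, 788 of 12708 were called higher and 651 lower. These were 809 and 835 of 7583 with the stricter filter, and 637 and 487 of 22180 without a filter. Of 12708 genes they were 606 and 451 with the replicate block, 789 and 698 after quantile normalization, and 1072 and 1027 with trended and robust eBayes. With the replicate block, Fhl1 lost its call and Mylk gained a call. The numbers are no more than shared numbers, since same-numbered arrays did not deviate together. The median difference of 0.05 log2 was 0.0664 after quantile normalization, 0.0295 after centring, and 0.0164 to 0.0877 on leaving out 1 array each. Centring turned the sign of 2 of 34 differences, both within 0.01 log2 of 0. The cause was not tested. Array weights, and averaging the probe sets of each gene, left both counts of the 34 as they were. With 2 arrays a group, a missing call does not show that a gene was level.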
